A study of Mus musculus with 38 samples.

Results

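The comparison described here is that of QKO with WT naive mouse embryonic stem cells (mESCs), in which LAP2B was mapped by CUT&RUN. QKO cells lack the lamins and the lamin B receptor (LBR). The comparison takes 6 of the 38 samples of the series, 3 libraries of each genotype, and was chosen by genotype, stage and antibody alone. Every gene and every transposable element (TE) family of these 6 libraries was taken, and genes are described by class: biotype, symbol family, length, GC content and LMNB1 level in WT cells.

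The study mapped LAP2B in 4 genotypes (WT, LBRKO, TKO and QKO), as naive mESCs and as epiblast-like cells (EpiLCs). All naive cells were grown in 2i and LIF. TKO cells lack Lmna, Lmnb1 and Lmnb2, LBRKO cells lack Lbr, and QKO is 1 clone made by disrupting Lbr in the TKO line. LMNB1 and the non-specific immunoglobulin background (IGG) were mapped in WT cells only. WT and TKO cells were derived separately, from littermate embryos. The study's methods describe the TKO line as carrying an extra chromosome 8 and a partial loss of Y, and part of the WT cells as having lost Y, some of these with an added chromosome 6 and 8. The karyotype of the QKO clone is not given in the sources used here. Libraries of a genotype are repeats on such lines, so spreads and p-values measure differences between libraries and not between clones. CUT&RUN reads are DNA, so they test neither the loss of the 4 proteins nor the naive state, and a region missing from the DNA of a line and a region that lost its LAP2B cannot be told apart.

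LAP2B, a product of the Tmpo gene, sits in the inner nuclear membrane, and in CUT&RUN a nuclease bound to its antibody cuts out the DNA close to it. Lamins form a meshwork under that membrane, and LBR is a membrane protein that binds both lamin B and heterochromatin. Together they hold lamina-associated domains, long stretches of gene-poor and mostly silent chromatin, at the nuclear edge.

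Deposited values are spike-in scaled RPKM summed over the 1 kb bins that a gene touches. They are used as deposited (the spike-in scale) and after dividing each library by its median gene (the relative scale), on which a value of 1 is the library's median gene. Recovered reads over genes came to 19264866 to 28566810 in the WT and 22809969 to 34639138 in the QKO libraries. The mean value per gene was 10.7, 16.1 and 11.7 in the 3 WT libraries and 4.83, 3.89 and 4.61 in the 3 QKO libraries. All QKO libraries lay below all WT libraries. The mean log2 level fell by 1.51 (exact permutation test, two-sided, p = 0.1, the smallest that 3 against 3 allow). The size of this difference depended on the measure. It was -1.13 with the spike-in factor applied to whole reads, -1.24 for the median gene and -1.79 over TE families.

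The first question is which genes lost LAP2B in these cells, and whether any gained it. On the spike-in scale, 45808 of 70381 tested genes fell and 7142 rose (limma, adjusted p under 0.05; 75.2% of genes called, 10.1% higher and 65.1% lower), with a median log2 change of -1.23. When the spike-in factor was applied to whole reads in place of RPKM, 11413 rose and 41105 fell. On the relative scale 23420 rose and 29658 fell (75.4% called, 33.3% higher and 42.1% lower). Which direction held more genes depended on the scaling, with 27052 higher and 24952 lower after division by the library mean and 26698 and 25807 by the median of ratios. The median relative change over all tested genes was -0.21. The relative scale is centred on all 78202 genes of the table, and the tested set leaves out the lowest. Dividing by the library mean put that median at 0.02 and scaling by the median of ratios put it at -0.01, and the relative medians given here are to be read beside -0.21. The QKO and WT libraries did not overlap at 75.2% of tested genes on the relative scale.

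The relative scale differs from the spike-in scale by a factor per library, so nested calls follow largely from the scaling and are no independent support. All 7142 genes higher on the spike-in scale were also higher on the relative scale, and all 29658 genes lower on the relative scale were also lower on the spike-in scale. Between them lay 13856 genes that rose on the relative scale and were not called on the spike-in scale. A further 2422 rose relative to the median gene while they fell in spike-in terms.

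The change followed the WT level of LMNB1. Tested genes with coordinates were ranked by WT naive LMNB1 per bin and cut into 10 equal classes. In the class with least LMNB1, median LAP2B per bin was 0.229, 0.261 and 0.274 in the WT libraries and 0.242, 0.193 and 0.234 in the QKO libraries. These ranges overlap. In the class with most LMNB1 it was 0.916, 1.48 and 0.969 in WT and 0.158, 0.147 and 0.158 in QKO. These ranges do not overlap, and the QKO values stood near the WT IGG background of the same genes, which had a median of 0.129 per bin. The median relative change was 0.93 and 1.06 in the lowest and the next class, 0.01 in the fifth and -1.42 in the highest. In the lowest class 4488 of 7032 genes rose and 675 fell on the relative scale, while in the highest class 280 rose and 5859 fell. In spike-in terms more genes fell than rose even where LMNB1 was low, with 1618 higher and 2186 lower in the lowest class (median -0.13) and 1950 and 2105 in the next (median -0.05). In the highest class 15 rose and 6722 fell there. Changes and calls below are on the relative scale wherever no other scale is named.

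**Figure D1:**
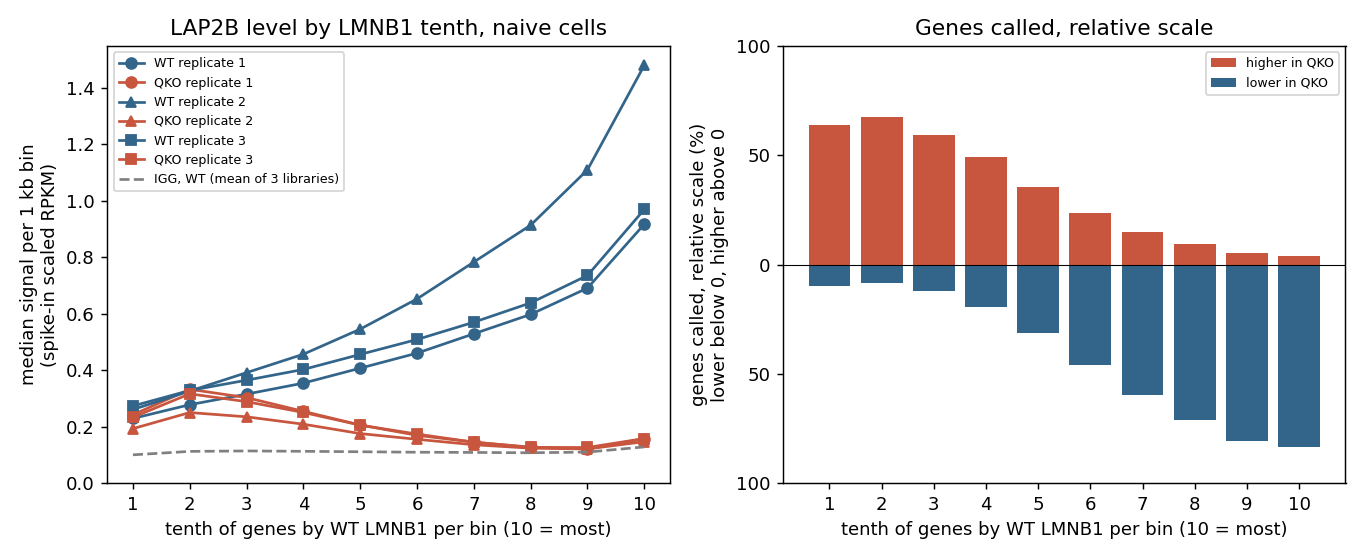
Left, median LAP2B signal per 1 kb bin (spike-in scaled RPKM) in each library over the 10 classes of WT LMNB1, with WT naive IGG (dashed). WT libraries climb from 0.229–0.274 in the lowest class to 0.916–1.48 in the highest, while QKO libraries end at 0.147–0.158. Right, the percentage of genes in each class called higher (above 0) or lower (below 0) on the relative scale.

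The lamina contrast puts this into 1 number per library. It is the log2 ratio of mean LAP2B per bin between the class with most and the class with least LMNB1, when genes are cut into 4 equal classes. It was 1.59, 2.00 and 1.44 in WT and -0.81, -0.63 and -0.75 in QKO, so that its sign was opposite in every library of the pair. The difference was -2.41 (two-sided exact permutation p = 0.1, the smallest possible, n = 3 per group).

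GC content ordered the genes about as strongly as LMNB1. Over 10 equal classes of genes by GC, the median relative change went from -1.48 in the lowest to 1.53 in the highest. In the lowest class 201 genes rose and 6095 fell, and in the highest 5581 rose and 379 fell. The highest GC class was the only one with a median above 0 on the spike-in scale, at 0.41, with 2835 genes higher and 1111 lower. Across 70312 genes, which are not independent and share libraries, Spearman's rho of the change was 0.65 with GC, -0.64 with LMNB1 per bin and 0.36 with IGG per bin. GC and LMNB1 themselves had a rho of -0.43. With genes cut into 4 equal classes by each measure, the median change inside the class with most LMNB1 was -1.57 at the lowest and -0.26 at the highest GC. Inside the class with least LMNB1 these medians were -0.58 and 1.55, so both orderings were present within the other.

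Library composition moved with this result. Per bin, rho with GC across genes was -0.22, -0.35 and -0.19 in the WT LAP2B libraries and 0.62, 0.62 and 0.63 in the QKO libraries. IGG libraries of WT cells had 0.32, 0.60 and 0.45. The rho of LAP2B with mean WT IGG was 0.26, 0.14 and 0.27 in WT and 0.58, 0.60 and 0.59 in QKO. No IGG library of QKO cells was at hand, and the part of background cutting in the changes was not tested.

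**Figure D2:**
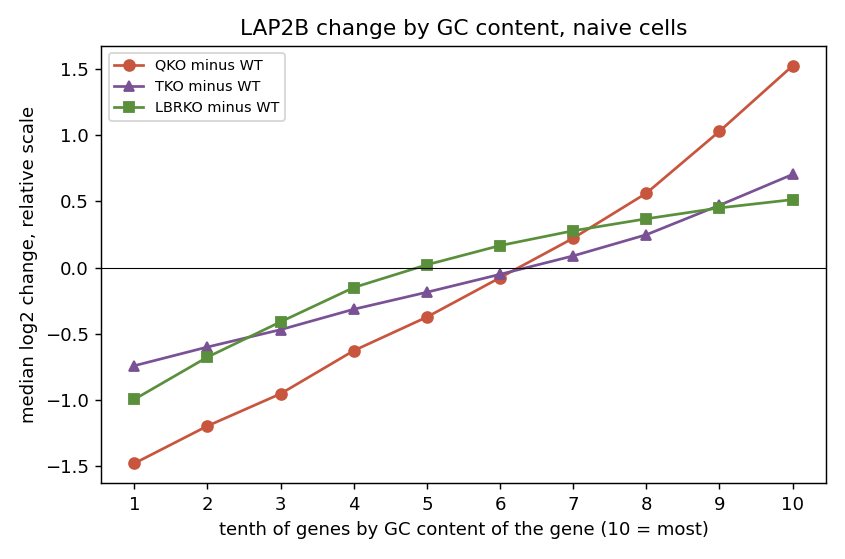
Median log2 change of LAP2B on the relative scale over 10 equal classes of genes ranked by GC content, for QKO, TKO and LBRKO against the same WT libraries. The QKO line runs from -1.48 to 1.53, the TKO line from -0.74 to 0.70 and the LBRKO line from -1.0 to 0.51.

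Protein-coding and miRNA genes had the highest medians among biotypes. Of 20852 protein-coding genes tested, 10026 rose and 7734 fell on the relative scale, with a median of 0.25. Most of them fell in spike-in terms, where 3669 rose and 12151 fell (median -0.93). The miRNA genes, which code for small regulatory RNAs, had 0.32 (646 higher and 384 lower of 1607) and a spike-in median of -0.52 (198 higher, 679 lower). Long noncoding RNA genes had a median of -0.20, close to that of all genes (10267 higher and 13168 lower of 31511). Processed pseudogenes, which are retrocopies of mRNAs, had -0.68 (1018 higher, 4079 lower of 8099). Unprocessed pseudogenes, which arise by duplication, had -1.10 (137 higher, 1217 lower of 1778). The filter on low values took the mean over all LAP2B libraries, so a gene could pass it by being high in WT or in QKO alone. It kept 1778 of 3156 unprocessed and 8099 of 10277 processed pseudogenes, and 1607 of 2201 miRNA genes. Counts of classes that lost many members to it, here and below, are not free of the filter. Median WT LMNB1 per bin was 0.316 over protein-coding genes, 0.359 over miRNA genes, 0.356 over long noncoding RNA genes, 0.467 over processed and 0.486 over unprocessed pseudogenes, an order that differs from that of the change at the miRNA genes. Within the class of 4 with least LMNB1, protein-coding genes had a median of 1.47, long noncoding genes 0.71, processed pseudogenes 0.42 and unprocessed pseudogenes -0.28. Within the class with most, the same biotypes lay closer together, between -1.5 and -1.20.

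The longest genes stood lowest. The median change was -0.31 for genes of 1 to 2 bins, -0.11 for 3 to 10, 0.02 for 11 to 50, -0.59 for 51 to 200 and -1.28 for genes over 200 bins. Of the 1204 longest genes 135 rose and 968 fell, and in spike-in terms 4 rose and 1145 fell. Within the class of 4 with most LMNB1, none of the 402 longest genes rose and 99.5% fell. In the class with least LMNB1, 53.9% of the 141 longest rose. Across all genes rho with the number of bins was only -0.04.

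Several of the lowest families code for receptors used outside the embryo. Olfactory receptors detect odours, vomeronasal receptors detect pheromones, and killer cell lectin-like receptors sit on natural killer cells. Such families lie in many clusters, so neighbours are not independent, and reads may be shared between recent copies. Class I olfactory receptors had a median of -1.96 (0 higher and 124 lower of 128 tested) and class II -1.55 (20 and 876 of 977). Median GC was 37.9% over class I and 36.4% over class II, and median WT LMNB1 was 0.821 and 0.701 per bin. Of all genes in the lowest of 10 GC classes 86.7% fell (median -1.48). Among genes with most LMNB1 and lowest GC, each in 4 classes, 92.6% fell (-1.57). The class II share, 89.7%, lies near that of all genes of such composition. Median LAP2B per bin over class I receptors was 0.712, 1.29 and 0.786 in WT and 0.0856, 0.0926 and 0.0857 in QKO. The WT IGG median of these genes was 0.100 per bin. Vomeronasal receptors of type 1 had -1.62 (1 and 145 of 148 tested among 230 in the table) and of type 2 -1.88 (0 and 109 of 111). Bitter taste receptors had -1.35 (0 and 32 of 34). Trace amine receptors, a small olfactory family, had -0.37, and 4 of 15 fell, against 13 of 15 in spike-in terms.

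Within the receptor families the spread was wide. Or6a2 was the lowest class II member, with relative values of 6.56, 6.70 and 4.50 in WT and 0.789, 0.771 and 0.559 in QKO. Or5au1 was the highest class II member, with 1.10, 1.61 and 1.77 in WT and 3.72, 2.89 and 2.82 in QKO (log2 change 1.04, SE 0.20, limma adjusted p 9.00e-06). Its libraries do not overlap, in the direction opposite to most of its family. Vmn1r1 also rose, by 0.91, while Vmn1r16 fell by 2.79. Both rises were relative only, since no class II olfactory or type 1 vomeronasal receptor was called higher on the spike-in scale and 955 and 147 of them fell there.

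Immune receptor loci fell with them. Immunoglobulin V segments, the gene pieces joined to make antibodies, had a median of -1.55 (0 higher and 198 lower of 204). Heavy chain segments had -1.66, with median LAP2B per bin of 1.44, 2.48 and 1.5 in WT and 0.194, 0.176 and 0.174 in QKO, and kappa chain segments had -1.39. T cell receptor V segments had -0.99 (0 and 98 of 131), and the beta locus had -1.35 against -0.94 for alpha and delta. Killer cell lectin-like receptors had the lowest median of any family, -2.35 (1 and 22 of 23). Their median per bin was 0.0741, 0.0753 and 0.0732 in QKO, below a WT IGG median of 0.111. Klrc2 went from 202, 177 and 220 reads in WT to 30, 28 and 21 in QKO. Klrg2 was the 1 member that rose, by 1.24, and it was not called on the spike-in scale (0.03), where the other 22 fell.

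Other clustered families were low as well. The Pramel genes, a reproductive family expanded in the mouse, had a median of -2.03 (0 higher and 47 lower of 52), and their median per bin was 0.642, 1.03 and 0.667 in WT and 0.0553, 0.0604 and 0.0612 in QKO. Those QKO values were below the WT IGG median of the same genes, 0.0994 per bin. Loss of DNA and loss of LAP2B cannot be told apart here. Pramel33 had the lowest value at -3.59 and Pramel6 the highest at 0.14, not called, although it fell by 1.05 on the spike-in scale. All 52 tested serpin A and B genes, which code for protease inhibitors, fell (median -1.59), from -0.74 at Serpina3n to -2.61 at Serpinb3c. Serpina3m, an example gene of the study, went from 15.9, 18.7 and 14.6 to 6.22, 7.26 and 6.53 (change -1.28, SE 0.12, adjusted p 2.71e-14). All 35 late cornified envelope genes of the skin fell (median -1.69). Defensins, which code for antimicrobial peptides, had -1.38 (5 higher, 53 lower of 70), and UDP glucuronosyltransferases, which conjugate drugs and hormones, -1.64 (0 and 13 of 19).

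Families of short housekeeping genes lay at the other end. Ribosomal protein genes had a median of 1.5, and 72 of 77 rose with none lower. Their median per bin was 0.285, 0.326 and 0.342 in WT and 0.554, 0.365 and 0.535 in QKO, so that even on the spike-in scale the ranges do not overlap, with 29 genes called higher and 4 lower. Rpl23 rose by 3.26, while Rpl10l, a retrocopy used in the testis, had -0.30 and was not called. Among 68 listed histone genes 24 passed the filter on low values, and 22 of these rose (median 1.80). That filter took the mean over all LAP2B libraries, QKO included. A gene low in WT could pass it by being high in QKO, so these counts are not free of the filter. H1f0, a replacement linker histone that the symbol rule also takes, had the highest value at 2.43. Small nucleolar RNA genes named Snora or Snord with a number had 1.30 (106 higher, 1 lower of 129 tested among 157). They are a subset of the snoRNA biotype, which as a whole had -0.47 (294 higher, 484 lower of 1116). Proteasome subunits had 0.96 (31 and 6 of 38) and mediator subunits 1.04 (20 and 5 of 30). Neither family was mostly higher in spike-in terms, with 11 higher and 11 lower proteasome and 9 higher and 13 lower mediator genes (medians -0.25 and -0.16). A list of 21 housekeeping genes had 1.92, with 19 higher and none lower. Atp5f1b, a subunit of ATP synthase, went from 0.903, 1.09 and 0.923 to 10.9, 8.09 and 9.32.

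Hox genes, which pattern the body axis and lie in 4 clusters, rose with a median of 1.52 (37 higher and 0 lower of 39). The clusters differed in size of change. The 9 HoxC genes had a median of 2.26 and the 10 HoxB genes 1.95, while the 11 HoxA genes had 1.08 and the 9 HoxD genes 0.76. In spike-in terms 8 HoxC and 6 HoxB genes rose, none of the HoxA or HoxD genes did, and 1 HoxA and 2 HoxD genes fell. Median LAP2B per bin over HoxC was 0.294, 0.413 and 0.435 in WT and 0.943, 0.495 and 0.786 in QKO, and over HoxD it was 0.294, 0.348 and 0.304 in WT and 0.314, 0.195 and 0.281 in QKO. The HoxC ranges do not overlap and the HoxD ranges do. Genes of a cluster share bins and neighbours, so each cluster is close to 1 observation. Hoxa13, named after its values were seen, had 0.24 and Hoxd1 had -0.06, both not called, and the sign of Hoxd1 turned positive when libraries were divided by their mean.

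The clustered protocadherins, cell adhesion genes that neurons use for self-recognition, split inside a single locus on chromosome 18. All 14 alpha genes fell (median -1.02), and all 19 gamma genes rose (median 1.71). Of the 22 beta genes between them 9 fell and none rose (median -0.42). In spike-in terms all 14 alpha and all 22 beta genes fell, and 9 of the gamma genes rose and none fell (median 0.47). Median LAP2B per bin over the alpha genes was 0.441, 0.662 and 0.498 in WT and 0.109, 0.109 and 0.111 in QKO. Over the gamma genes it was 0.333, 0.405 and 0.379 in WT and 0.599, 0.379 and 0.563 in QKO, and these ranges overlap. The gamma genes had less WT LMNB1, 0.257 per bin, than the alpha genes, 0.441. Alpha genes overlap each other over long stretches, as do gamma genes, and were therefore counted from many of the same reads.

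**Figure D3:**
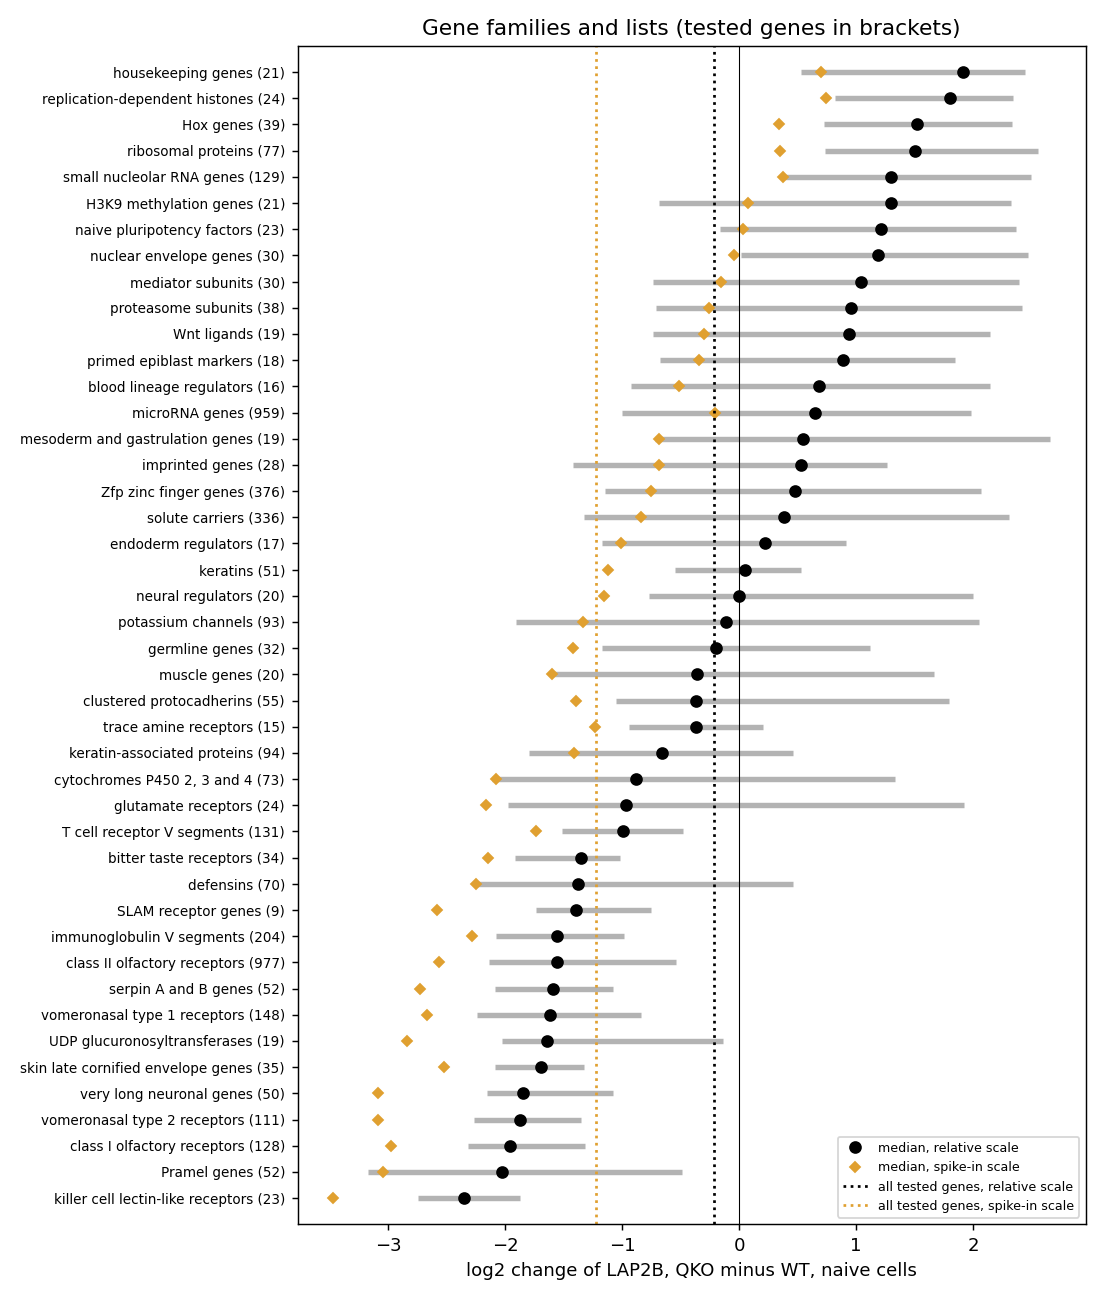
Median log2 change of LAP2B, QKO minus WT, for each gene family and list on the relative scale (black circles) and the spike-in scale (orange diamonds). Grey bars run from the 10th to the 90th percentile on the relative scale, and dotted lines mark the medians of all tested genes, -0.21 and -1.23. Killer cell lectin-like receptors, Pramel genes and class I olfactory receptors lie at the bottom and housekeeping, histone, Hox and ribosomal protein genes at the top.

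Lists by cell function were mixed. Of 23 naive pluripotency factors 18 rose and 3 fell (median 1.22). Klf2 went from 1.01, 0.636 and 1.06 to 8.49, 5.37 and 8.56, and Pou5f1, the gene of OCT4, from 1.32, 0.50 and 1.21 to 9.19, 6.25 and 7.99. Esrrb rose by 1.76, Sox2 by 2.3 and Nanog by 0.75, the last of which was not called on the spike-in scale (-0.47). Dppa4 fell by 0.82, Dppa2 by 0.40 and Nr5a2 by 0.22, and the last of these turned positive when libraries were divided by their mean. In spike-in terms 7 of the 23 rose and 7 fell. Primed epiblast markers, which mark the next stage of development, had a median of 0.89 (12 higher, 3 lower of 18), from 3.00 at Etv4 to -1.72 at Fgf5. Their spike-in median was -0.34, with 2 higher and 6 lower.

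Lineage regulators divided in the same way within each list. Mesoderm and gastrulation genes had a median of 0.55, with Nodal, a TGF-beta ligand, at 2.87 and Twist1 at -1.60. Neural regulators had 0.00, with 9 higher and 5 lower of 20, and ran from 3.36 at Nes, an intermediate filament gene of neural progenitors, to -1.31 at Neurod1. Endoderm regulators had 0.22, and the lowest was Afp, a fetal serum protein gene, with -2.04. Blood lineage regulators had 0.68, from Klf1 at 2.59 to Ikzf1 at -1.75. Wnt ligands had 0.94, with 15 higher and 4 lower of 19, from Wnt1 at 2.24 to Wnt2 at -1.59, but 4 rose and 7 fell in spike-in terms (median -0.30). Muscle genes had -0.36 and germline genes -0.20. The germline median turned to 0.07 when libraries were divided by their mean, and 10 of 32 germline genes rose while 15 fell. Imprinted genes had 0.53, from Nnat at 1.98 to Magel2 at -1.61. In spike-in terms more genes fell than rose in each of these lists. There 4 mesoderm genes rose and 10 fell, as did 3 and 12 neural, 1 and 14 endoderm and 4 and 8 blood regulators. Muscle genes had 1 higher and 13 lower, germline genes 1 and 23, and imprinted genes 1 and 17.

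The 50 genes tested from a list of 49 symbols of very long neuronal genes moved almost entirely one way. Of these 49 fell and none rose (median -1.85), and all 50 fell on the spike-in scale. Their median length was 1136.5 bins and their median WT LMNB1 0.646 per bin. Of all genes over 200 bins 80.4% fell (median -1.28). Among such genes in the class of 4 with most LMNB1 99.5% fell (median -1.79). The list lies near that share, so nothing particular to neuronal genes is shown. Median LAP2B per bin was 0.620, 1.02 and 0.656 in WT and 0.0883, 0.0915 and 0.0892 in QKO. The WT IGG median of these genes was 0.0953 per bin. Cntn6, a neural adhesion gene, had -2.36, and Csmd2 had 0.02 and was not called. Of the 9 SLAM receptor genes, immune cell surface receptors on chromosome 1, 8 fell (median -1.40). Slamf6, another example of the study, went from 12.9, 16.4 and 13.6 to 8.23, 7.55 and 7.5, and Cd244a was lowest with -2.0.

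Genes of the nuclear envelope itself were mostly higher on the relative scale alone, with a median of 1.19 and with 22 higher and 2 lower of 30. In spike-in terms 13 rose and 11 fell (median -0.05). The lamin genes differed among themselves. Over Lmna, the relative value was 9.56, 4.16 and 7.04 in WT and 52.0, 28.6 and 39.5 in QKO, a change of 2.55 (SE 0.24, adjusted p 1.06e-13). Over Lmnb2 it was 3.21, 1.82 and 3.63 in WT and 20.7, 14.3 and 18.8 in QKO, a change of 2.63 (SE 0.17, adjusted p 1.39e-19). Over Lmnb1 it was 13.2, 12.2 and 11.8 in WT and 12.2, 12.5 and 12.8 in QKO, with a change of 0.02 (adjusted p 0.901). Lmna and Lmnb2 also rose on the spike-in scale, by 1.31 and 1.41, and Lmnb1 fell there by 1.21. All 3 genes are knocked out in QKO and TKO alike, and none lost its coverage.

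The other members of the envelope followed either course. Lbr had 4.58, 4.3 and 5.67 in WT and 9.58, 8.19 and 8.72 in QKO (change 0.86, adjusted p 1.85e-07), and on the spike-in scale it was not called. Tmpo, which makes LAP2B, had 0.03 and was not called. Prr14, which codes for a protein that links heterochromatin to the lamina, was highest with 3.01, and Emd and Banf1, for emerin and its DNA-binding partner, had 2.35 each. Syne1, a giant nesprin gene, fell by 1.46 and Zmpste24, the prelamin A protease gene, by 1.35. Of 21 genes for H3K9 methylation 15 rose and 5 fell (median 1.30), with Uhrf1 at 2.70 and Kdm4c at -0.89, and in spike-in terms 8 rose and 8 fell (median 0.07).

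By a rule on protein-coding genes of at least 5 bins whose QKO and WT libraries did not overlap, with at most 2 per symbol family, the largest rises were at Tlcd1, Prrg2, Zbtb7b, Pbx2, Adamtsl4, Crabp2, Nhsl3, Septin1, Hsd17b14 and Naa10. They ran from 3.78 at Tlcd1 down to 3.55 at Naa10, with limma adjusted p from 5.20e-17 at Naa10 to 4.45e-30 at Nhsl3. Tlcd1 (ENSMUSG00000019437; GRCm39 chromosome 11, 78067537 to 78073335), a membrane protein gene, had relative values of 0.833, 0.727 and 0.231 in WT and 10.1, 6.87 and 9.22 in QKO. On the spike-in scale these were 1.76, 2.09 and 0.547 in WT and 11, 6.34 and 9.92 in QKO, a rise of 2.59 (adjusted p 3.84e-18). Zbtb7b (ENSMUSG00000028042; chromosome 3, 89284942 to 89302144), a zinc finger factor of CD4 T cells, had 2.94, 2.39 and 3.19 in WT and 43.3, 28.7 and 41.6 in QKO. For both genes the lowest QKO library lay far above the highest WT library. Nhsl3 (ENSMUSG00000050390; chromosome 4, 129113371 to 129155197) was the longest of the 10, with 6.01, 4.95 and 5.79 in WT and 80.0, 54.1 and 73.9 in QKO. On the spike-in scale the 5 largest rises were Tlcd1, Prrg2, Zbtb7b, Pbx2 and Crabp2, from 2.59 down to 2.43. Crabp2, which codes for a retinoic acid binding protein, had spike-in values of 1.35, 0.913 and 2.01 in WT and 10.1, 7.11 and 7.82 in QKO.

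The largest falls by the same rule were at Pramel33, Pramel43, Esp38, Klrc2, Slco1a1, Slco1a8, Ifi202b, Or6a2, Or5h19 and Klrk1. Slco1a1 (ENSMUSG00000041698; chromosome 6, 141853007 to 141892690), an organic anion transporter of liver and kidney, had 18.8, 27.5 and 18.5 in WT and 2.22, 3.04 and 2.79 in QKO (change -2.95, SE 0.14, adjusted p 1.12e-24). Klrk1 (ENSMUSG00000030149; chromosome 6, 129587286 to 129600827), the gene of the activating receptor NKG2D, had 7.04, 8.77 and 6.63 in WT and 0.844, 1.04 and 1.00 in QKO. Ifi202b, an interferon-induced gene on chromosome 1, had 22.6, 26.5 and 22.3 in WT and 2.62, 3.45 and 3.25 in QKO. Pramel33 went from 1140, 587 and 818 reads to 93, 126 and 82. In each of these the groups lie well apart. Most of these genes belong to families with close copies in the mouse, so their reads may be shared with neighbours.

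**Figure D4:**
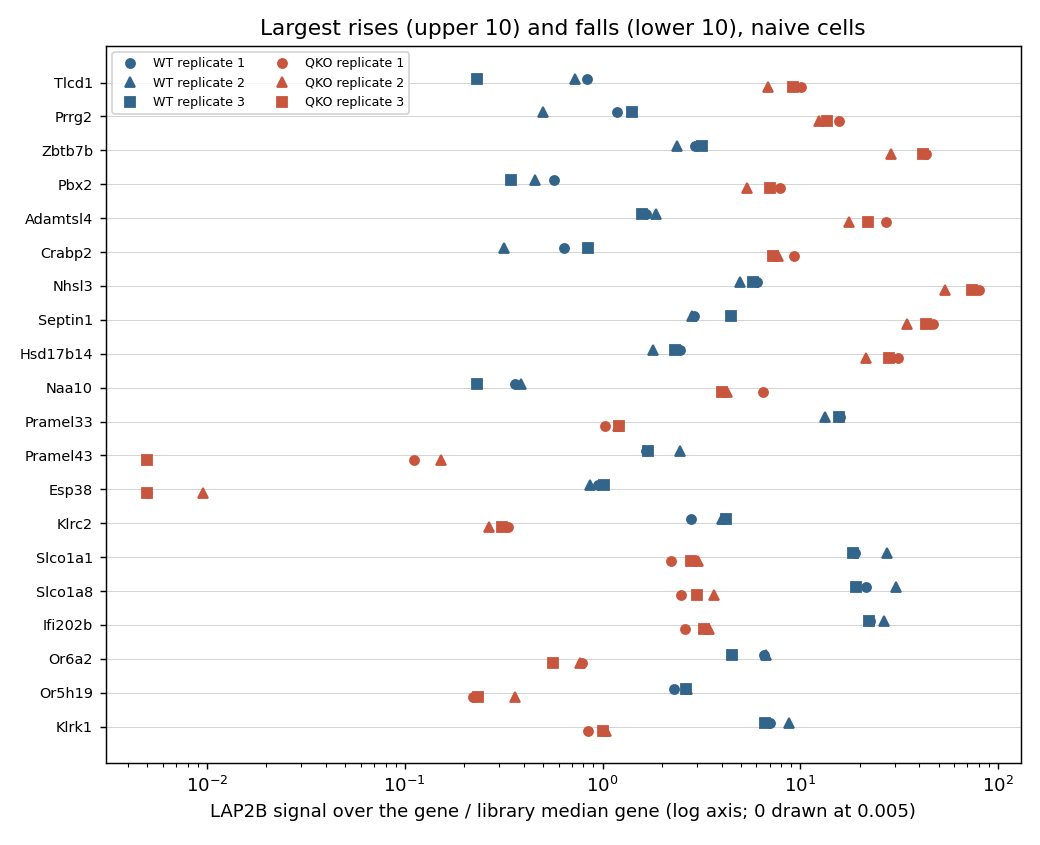
LAP2B over the 10 largest rises and the 10 largest falls, as the signal over the gene divided by the library's median gene, on a log axis, with 1 point per library (values of 0 are drawn at 0.005). WT and QKO points do not overlap for any of the 20 genes, which the naming rule required.

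The base composition of these genes differed. The bases just before the gene start are shown for a pair of rises and a pair of falls, picked after their values were seen, because the CG dinucleotides, here in capitals, differ in number between the groups. The sequences are the 250 bases upstream of the annotated start in GRCm39, on the strand of the gene, 5′ to 3′. They are of Tlcd1 (chromosome 11, 78067287 to 78067536, plus strand), Zbtb7b (chromosome 3, 89302145 to 89302394, minus strand), Slco1a1 (chromosome 6, 141892691 to 141892940, minus strand) and Klrk1 (chromosome 6, 129600828 to 129601077, minus strand).
Tlcd1: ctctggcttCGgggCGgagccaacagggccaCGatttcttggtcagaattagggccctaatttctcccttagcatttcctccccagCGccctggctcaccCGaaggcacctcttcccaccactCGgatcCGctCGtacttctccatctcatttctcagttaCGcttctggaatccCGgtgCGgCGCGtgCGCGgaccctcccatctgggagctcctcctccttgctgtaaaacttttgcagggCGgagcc
Zbtb7b: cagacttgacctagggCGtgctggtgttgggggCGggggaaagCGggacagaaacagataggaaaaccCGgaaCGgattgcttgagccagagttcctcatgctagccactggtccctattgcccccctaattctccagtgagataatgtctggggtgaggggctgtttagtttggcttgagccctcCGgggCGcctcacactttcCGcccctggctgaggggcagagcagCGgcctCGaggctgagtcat
Slco1a1: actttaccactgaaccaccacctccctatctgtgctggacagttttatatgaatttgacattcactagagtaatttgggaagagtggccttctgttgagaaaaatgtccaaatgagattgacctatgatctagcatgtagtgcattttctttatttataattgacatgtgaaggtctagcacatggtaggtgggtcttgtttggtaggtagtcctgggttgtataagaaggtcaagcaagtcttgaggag
Klrk1: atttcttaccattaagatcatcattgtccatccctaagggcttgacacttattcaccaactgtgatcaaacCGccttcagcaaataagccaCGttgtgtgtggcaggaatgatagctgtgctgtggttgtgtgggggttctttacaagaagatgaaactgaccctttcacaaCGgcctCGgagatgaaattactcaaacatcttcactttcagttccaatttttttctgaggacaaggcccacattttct
These hold 16, 10, 0 and 4 CG dinucleotides. Over the 10 rises the median was 11 and over the 10 falls 2.5, and both sets had exceptions, since Nhsl3 held 0 and Or5h19 held 6. In the same window, the 20848 tested protein-coding genes had a median of 6 and 7.70% had none. Those called higher (10025) had a median of 9 and those called lower (7731) a median of 3, with 2.60% and 15.3% having none. GC content of the whole gene was 49.2 to 57.7% among the 10 rises and 33.0 to 42.8% among the 10 falls.

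A few genes had almost no reads left in QKO. Chosen after their values were seen, 6 genes had at most 3 reads over the 3 QKO libraries together and at least 20 in each WT library. Esp38, an exocrine gland peptide gene on chromosome 17, had 68, 38 and 53 reads in WT and 0, 1 and 0 in QKO. The others were Ighv1-48, Gm49836, Gm7048, Gm43224 and Gm45678, with 84 to 140 reads over the WT libraries and 0 to 2 over QKO. Over the TKO libraries, from which the QKO clone was made, the 6 genes had at most 2 reads each. Over LBRKO they had 28 to 118, and the WT IGG libraries had 52 to 88. Loss of this DNA from the TKO line and loss of its LAP2B cannot be told apart, and no fold change is given for these genes. Ighv1-49, the lowest immunoglobulin segment by the fit, had 57, 29 and 18 reads in WT, 0 in each QKO library and 1, 3 and 6 in TKO.

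Chromosomes differed in the direction of the change on the relative scale alone. In spike-in terms each of them had a median below 0 and more genes lower than higher. Chromosome 11 had the highest median, 0.79 (2399 higher and 1010 lower of 4290), followed by chromosomes 4 and 17 with 0.30 each. The spike-in counts of these were 1047 higher and 1831 lower on chromosome 11, 689 and 2094 on chromosome 4 and 610 and 1634 on chromosome 17. Chromosome Y had -0.91 (17 higher, 610 lower of 912), X had -0.69, chromosome 6 had -0.65 and chromosome 3 had -0.62. Chromosome 8, of which TKO cells carry an extra copy, had -0.16, close to the median of all genes. Its median LAP2B per bin was 0.594, 0.793 and 0.669 in WT, above the 0.437, 0.599 and 0.485 of all genes. Its WT IGG median was 0.163 per bin, against 0.111, so WT values were raised there too. Median LAP2B per bin on chromosome 11 was 0.376, 0.474 and 0.433 in WT and 0.347, 0.263 and 0.326 in QKO, and on chromosome Y it was 0.164, 0.235 and 0.194 in WT and 0.0364, 0.0351 and 0.0352 in QKO. Chromosome counts that vary between these lines enter such values, and their part was not tested.

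Neighbouring genes moved together. Of 2195 windows of 1 Mb with at least 10 tested genes, 1513 had a median below 0 and 682 above. In 1069 windows every called gene was lower and in 356 every called gene was higher. In spike-in terms 220 windows had a median above 0. The lowest windows were the 2 that hold the Pramel cluster of chromosome 5, from 94 to 96 Mb, where all 24 and all 28 tested genes fell (medians -2.78 and -2.71). Their TKO medians were -1.94 and -1.93. Gm43224, a gene with almost no reads in QKO or TKO, lies near them on chromosome 5 (93569531 to 93571255). Whether DNA of this cluster is missing from the TKO line was not tested. All 52 tested genes of the Klr and Clec cluster on chromosome 6 at 129 to 130 Mb fell too (-2.21). Among the highest were chromosome 8 at 85 to 86 Mb, which holds Klf1 and Junb (2.80, with 63 higher and 0 lower of 69), chromosome Y at 90 to 91 Mb (2.70, with 8 higher and 3 lower of 13), chromosome 10 at 80 to 81 Mb, which holds Lmnb2 (2.67, with 100 of 101 higher), chromosome 11 at 97 to 98 Mb with Rpl23 and Psmb3 (2.64, all 76 higher) and chromosome 7 at 44 to 45 Mb with Prrg2 (2.61, all 105 higher). High windows held more genes: in the highest of 10 equal groups of windows the median was 56 tested genes, and in the lowest 15. Over windows, rho of the median change was -0.75 with LMNB1, 0.81 with GC and 0.66 with the number of tested genes.

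QKO was set beside the single losses to see what removing both tethers added. TKO and LBRKO are each compared with the same WT libraries as QKO, so these changes share controls and are given only side by side. Over the families named next, the TKO and LBRKO medians were nearer to 0 than the QKO median in all but 1 case. Class I olfactory receptors had -1.96 in QKO, -0.99 in TKO and -1.12 in LBRKO. Killer cell lectin-like receptors had -2.35, -1.17 and -1.0, very long neuronal genes -1.85, -0.94 and -1.07, and Hox genes 1.52, 0.63 and 0.73. Histone genes had 1.80 in QKO, 1.22 in TKO and 0.03 in LBRKO. The clustered protocadherins had -0.37, -0.07 and -0.46.

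The direct test compares QKO with each of them without WT. Between QKO and TKO 37678 genes differed (53.5% of tested genes), 18628 higher in QKO and 19050 lower. Between QKO and LBRKO 37576 differed (53.4%), 15437 higher and 22139 lower, but 17643 higher and 17374 lower when libraries were divided by their mean. Of the 29658 genes lower in QKO than in WT, 11562 were also below both TKO and LBRKO. The same QKO libraries enter each of these comparisons, so this overlap was favoured by the choice of genes and is no independent support. The count below both over all tested genes is not given here. In the class of 10 with most LMNB1 the median QKO minus TKO difference was -0.73, with 160 genes higher and 4335 lower, and QKO minus LBRKO was -0.74, with 117 higher and 4322 lower. All but 1 of the 23 killer cell lectin-like receptors lay below TKO, and all but 1 lay below LBRKO. Their cluster lies on chromosome 6, where 2577 of 4092 tested genes lay below LBRKO and 156 above. The median QKO minus LBRKO difference was -0.77 on that chromosome, against -0.20 over all genes. Against TKO, 1424 genes of chromosome 6 lay below and 670 above, with a median of -0.27 against -0.07. The counts of this family are to be read beside these. Over class II olfactory receptors 636 of 977 lay below TKO and 351 below LBRKO. Lmna rose above TKO by 1.29 and above LBRKO by 2.26 (adjusted p 1.08e-05 and 1.46e-11), although 1 TKO library had 37.8 and the other TKO libraries 10.8 and 9.66. Zbtb7b rose above TKO by 2.01 and above LBRKO by 2.67. Or5h19 lay 1.48 below TKO (adjusted p 0.000126) and 0.60 below LBRKO, where it was not called (adjusted p 0.113). Pramel43 lay 0.72 below TKO and was not called (adjusted p 0.0658), and Lmnb1 did not differ beyond its spread from TKO (-0.00, adjusted p 0.999).

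The naive change was also set against that of QKO in EpiLCs. The lamina contrast fell by 0.95 there, from 3 WT to 3 QKO libraries, against 2.41 in naive cells. WT EpiLCs had 0.92, 0.55 and 0.60, below the 1.59, 2.00 and 1.44 of naive WT cells, and the classes are those of naive LMNB1. The study did not use LAP2B to mark lamina contacts in mutant EpiLCs, because in WT EpiLCs it also gave signal outside lamina-associated domains. By the limma interaction contrast on the relative scale, 32221 genes (45.8%) had a QKO effect that differed between the stages, 14763 with the higher and 17458 with the lower value in naive cells. Dividing by the library mean turned this split to 16787 higher and 13276 lower.

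Each TE family was given the mean value of its copies. LTR elements are endogenous retroviruses, LINEs copy themselves with their own enzymes, and SINEs are short elements that borrow LINE enzymes and lie mostly near genes. On the spike-in scale 1237 of 1241 families fell and 1 rose (99.8% called). The median family was at 0.588, 0.924 and 0.642 in WT and 0.186, 0.164 and 0.183 in QKO. In relation to the median gene of the library it was at 0.278, 0.322 and 0.271 in WT and 0.170, 0.178 and 0.170 in QKO and so lay lower against the median gene in every QKO library than in any WT library. On a scale divided by the library's median family, 469 families rose (37.8%) and 514 fell (41.4%, 79.2% called in all). Divided by the median gene in place of the median family, 33 rose and 1166 fell. Counts on the family scale therefore rank families among themselves and say nothing of their total.

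SINEs stood above the other TEs. All 34 SINE families, with 1490798 copies, were higher on the family scale (median 0.81), and all 34 fell on the spike-in scale (median -0.97). On the gene scale their median was 0.13, with 18 higher and 7 lower. The 15 Alu families, which hold the mouse B1 elements, had spike-in medians of 0.463, 0.682 and 0.521 in WT and 0.322, 0.245 and 0.300 in QKO, and 13 of them rose on the gene scale. B2_Mm1a, a young B2 family, had 0.448, 0.652 and 0.517 in WT and 0.371, 0.278 and 0.345 in QKO, and rose by 1.19 on the family scale and by 0.51 on the gene scale. B1_Mm rose by 0.78 on the family scale (SE 0.04, adjusted p 6.62e-13), and by 0.09 on the gene scale, where it was not called. Among the Alu, B2, B4, ID and MIR superfamilies of SINEs, MIR and B4 had the smallest medians, 0.48 and 0.56.

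L1 elements split by name group. The groups differ in WT LMNB1 as well as in age, with medians of 1.05 over L1Md, 0.83 over Lx and 0.51 over L1M families. All 25 L1Md families, which include those still able to move in the mouse, fell on the family scale (median -0.62), and so did all 21 Lx families (-0.56). The older L1M families were near 0 (median 0.04, with 36 higher and 28 lower of 77). L1Md families went from 1.06, 1.68 and 1.14 to 0.199, 0.193 and 0.202 on the spike-in scale, a median change of -2.38 against -1.75 over all families. L1MdTf_III fell from 2.01, 3.03 and 2.26 to 0.362, 0.334 and 0.367, and L1MdA_I, one of the youngest, from 2.28, 3.35 and 2.60 to 0.603, 0.473 and 0.619. These had relative changes of -0.74 and -0.27, the largest and the smallest fall among the L1Md families. QKO lay below TKO at all 25 L1Md and all 21 Lx families, and above TKO at all 34 SINE families (67.3% of families differed between QKO and TKO). Against the same WT libraries, the L1Md median was -0.62 in QKO, -0.17 in TKO and -0.54 in LBRKO, and the Lx median was -0.56, -0.18 and -0.46. The SINE median was 0.81, 0.33 and 0.46.

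LTR families were more even. ERVK had a median of -0.04 (99 higher and 123 lower of 285), ERV1 0.13 (67 and 34 of 121) and ERVL -0.09 (27 and 62 of 116). IAP families, ERVK elements that are active in mice, had -0.24, with 15 of 25 lower and none higher, beside medians of 0.17 in TKO and -0.43 in LBRKO. IAPEz-int, the IAP internal part, had relative values of 2.05, 1.70 and 2.29 in WT and 1.95, 1.98 and 2.10 in QKO. These overlap, and its change was 0.01 on the family scale and -0.71 on the gene scale. MERVL-int, a retrovirus of the cleavage stage, had -0.05 and was not called. The internal part ORR1B1-int rose by 1.09 and MER67D fell by 0.88, the extremes among those named by rule for the LTR class.

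Single families at the upper end need their own values. FordPrefect, a DNA transposon family of 270 copies, was the 1 family called higher on the spike-in scale, with 0.814, 1.28 and 0.981 in WT and 1.57, 1.09 and 2.02 in QKO. These overlap (change 0.56, adjusted p 0.0127), and the call was lost without QKO replicate 3 or WT replicate 1. Its WT IGG value, 1.27, was above its LMNB1 value, 0.740, and its median copy had a relative change of -0.18. ZP3AR, a satellite family of 2586 copies, rose by 1.55 on the family scale and was not called on the spike-in scale, at 0.465, 0.622 and 0.525 in WT and 0.491, 0.349 and 0.454 in QKO. UCON88 (52 copies) and Tigger1a_Mars (4 copies) were the others not called there. The major satellite GSAT_MM, the repeat of pericentromeres, fell from 448, 586 and 647 to 178, 192 and 214 and had 0.47 on the family scale (adjusted p 0.0506) and -0.27 on the gene scale.

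**Figure D5:**
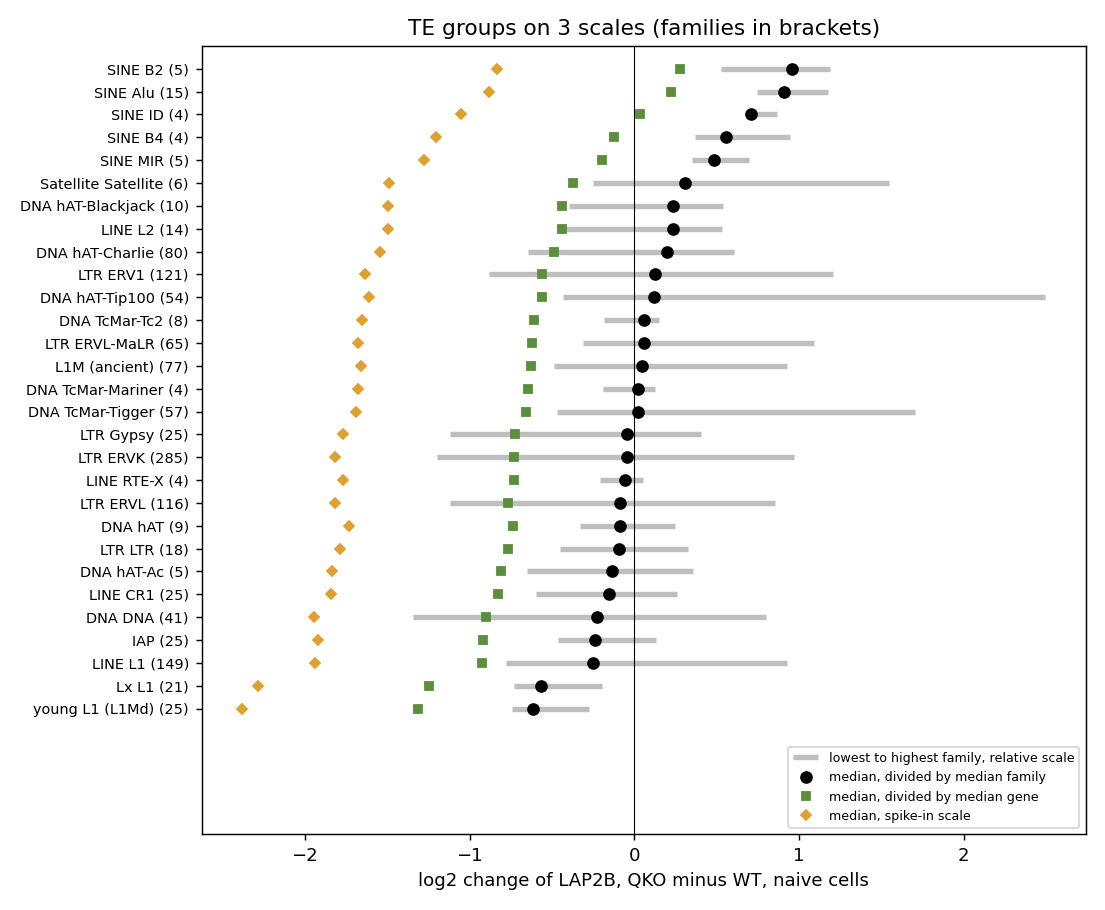
Median log2 change of LAP2B in QKO for the larger TE superfamilies and 4 groups of L1 and IAP families, on 3 scales: divided by the median family (black), divided by the median gene (green) and spike-in (orange), with grey bars from the lowest to the highest family. SINE groups lie at the top and young L1 groups at the bottom on every scale, while the position of 0 differs between scales.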

How the data were processed

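LAP2B was profiled by CUT&RUN in 24 libraries, 3 for each of 4 genotypes at 2 stages, beside LMNB1 and IGG in WT cells. According to the methods, reads were aligned to mm39 (GRCm39) with Bowtie2 2.3.5.1 and SAMtools 1.10 kept properly paired primary alignments without duplicates. deepTools then made RPKM coverage with a factor from a yeast spike-in. The values that the authors deposited are this signal, summed over the bins of each gene or TE copy. Genes exclude blacklisted regions and TEs include them. The methods give wider bins for TEs than the 1 kb that the values fit. Deposited values came out as whole reads in steps of the library (100% of values within 0.05 of a step), which gave the depth. Bowtie2 places a read that matches several copies at 1 of them, so values of repeats and gene copies are less certain.

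Genes were matched to GENCODE M39 coordinates by Ensembl ID (78131 of 78202, 99.9%). The lowest 0.1 of genes by mean over libraries were left out (70381 tested). Values were taken on the spike-in scale, or divided by the library's median gene or median TE family, and as log2(value + 0.1 of the table's median), which understates changes of low genes. limma 3.58.1 in R 4.3.3 fitted 8 group means to the 24 libraries with a trended prior, and p-values were adjusted by Benjamini-Hochberg (threshold 0.05). TE copies (3793386) were averaged into 1241 families. Single values per library were tested by exact permutation. Scripts were tested on simulated data. The alternatives tried are edgeR 4.0.16 and DESeq2 1.42.0 on recovered reads, other pseudocounts, filters, scalings, sample sets and TE summaries, a replicate block, and leaving out each library.

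Genes named are the 10 largest rises and 10 largest falls on the relative scale among called protein-coding genes of at least 5 bins with no overlap between libraries and at most 2 per symbol family. Added to these are the targeted genes with Tmpo, Serpina3m and Slamf6, the highest and lowest tested member of each list or family, called Hox, pluripotency and nuclear envelope genes, and the 5 largest rises on the spike-in scale. Not every gene that this rule names is reported here. Members and lists were chosen with earlier results of these data known. Samples of another mark were not analysed here.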

Additional observations from a re-analysis of the deposited data

Results flagged for a closer look

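The effect of QKO was set against the same contrast in EpiLCs, the cells that follow the naive state. Flagged as differing between the stages were the lamina contrast, the count of differing genes, and genes named for their naive change. For the named genes a difference was favoured in advance by how they were picked. The lamina contrast fell by 2.41 in naive cells and by 0.95 in EpiLCs. WT libraries had 1.59, 2.00 and 1.44 in naive cells and 0.92, 0.55 and 0.60 in EpiLCs, so the EpiLC fall began lower. The difference in QKO effect, naive minus EpiLC, was -1.45 (two-sided exact permutation of stage within genotype, p = 0.005 over 400 assignments). The null of that test is no change with stage in either genotype, which is narrower than an equal QKO effect at both stages. Rejecting it is therefore no direct test of unequal QKO effects, and this p is the smallest that the test allows. The QKO effect on the mean level differed by -0.52, naive minus EpiLC (two-sided exact permutation of stage within genotype, p = 0.105). Across genes on the relative scale, 32221 of 70381 (45.8%) had an effect that differed between stages by the limma interaction contrast, 14763 with a higher and 17458 with a lower value in naive cells. Dividing libraries by their mean gave 16787 higher and 13276 lower, so the direction of the majority depends on the scaling.

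Genes that rose most in naive QKO cells had a smaller change in EpiLCs. The naive minus EpiLC difference (log2, relative scale) was 2.81 at Tlcd1 (adjusted p 9.15e-10), 2.38 at Prrg2, 2.62 at Zbtb7b, 2.60 at Pbx2 and 2.47 at Adamtsl4. It was 2.62 at Crabp2, 2.55 at Nhsl3, 2.51 at Septin1, 2.33 at Hsd17b14 and 1.98 at Naa10. All 10 rises passed the test of this difference. Of the 10 largest falls 8 passed, with -1.17 at Pramel33, -1.91 at Pramel43 (adjusted p 0.000837), -1.56 at Slco1a1 and -1.56 at Slco1a8. The others were Ifi202b with -1.30, Or6a2 with -1.69, Or5h19 with -1.87 and Klrk1 with -1.25. Klrc2 missed the threshold with -0.68 (adjusted p 0.0775), as did Esp38 (adjusted p 0.295). These genes were named for their change in naive cells, so the size of their naive effect was fixed by that choice. A difference from EpiLCs was thereby favoured, and the number that passed is no independent support.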

How the results depend on the processing

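Of the summary values recomputed under other settings 316 kept their direction and size class and 14 moved. With genes of at least 10 kb alone, fewer genes were tested, and 21595 were called on the spike-in scale (2741 higher, 18854 lower) and 22882 on the relative scale (10042 higher, 12840 lower). Scaling whole reads by the spike-in factor gave 11413 higher genes. Called TE families higher on the spike-in scale numbered 0 with the median over copies, without QKO replicate 3 and without WT replicate 1. On the family scale 206 were higher with the median over copies. Dividing by the median gene gave 33 higher and 1166 lower families, and 28 superfamilies with a median below 0 in place of 16. The cause of these shifts was not tested beyond what each setting changes by construction. edgeR and DESeq2 on recovered reads called 53290 and 53630 genes on the spike-in scale and 52589 and 52973 on the relative scale. Leaving out 1 library, the level difference ran from -1.63 to -1.34 and the lamina contrast from -2.53 to -2.25. Called genes ran from 49916 to 51846 (spike-in) and from 49921 to 51961 (relative), and called families from 0 to 1 higher on the spike-in scale.

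Single genes and families kept direction and side of the threshold in 3634 cases, lost the call in 45, gained it in 15 and changed sign in 41. Leaving out 1 library, Lmnb1 ran from -0.0185 to 0.0629 (sign changed without WT 3), Tmpo ran from -0.0532 to 0.136 (sign changed without QKO 1 or WT 3) and Vmn2r129 ran from -0.207 to 0.259 (sign changed without QKO 2 or WT 2). Likewise Hoxd1 ran from -0.274 to 0.121 (sign changed without QKO 3 or WT 2), Trdv4 ran from -0.341 to 0.197 (sign changed without QKO 3 or WT 3), Csmd2 ran from -0.0797 to 0.0864 (sign changed without QKO 2 or WT 2) and IAPEz-int ran from -0.105 to 0.0979 (sign changed without QKO 3 or WT 2). Division by the mean gave Hoxd1 0.173, Ugt1a5 0.142, Sdha 0.128 and Nr5a2 0.0465. The median of ratios gave Hoxd1 0.141, Ugt1a5 0.105, Sdha 0.0896 and Nr5a2 0.0078. A pseudocount equal to the median gave Trdv4 -0.00654. edgeR gave Trdv4 -0.0893. DESeq2 gave Trdv4 -0.0794. The median over copies gave FordPrefect -0.18, MERVL-int 0.0224, RLTR45-int -0.142 and SYNREP_MM -0.0753. Division by the median gene gave MER91B -0.0208, MER81 -0.145, L1MB5 -0.225, L2b -0.233, L1ME4b -0.241, MMSAT4 -0.321, CYRA11_Mm -0.404, MurSatRep1 -0.0323, MamRep564 -0.379, IAPEz-int -0.705, RLTR45-int -0.616, GSAT_MM -0.271 and SYNREP_MM -0.521.

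With the replicate number as a block, 52394 genes were called on the spike-in and 53067 on the relative scale, with 985 families on the family scale and 1237 in spike-in terms. The block gave 37636 genes between QKO and TKO, 37552 between QKO and LBRKO and 32157 between stages. Deviations of same-numbered libraries had correlations of 0.0546, 0.177 and 0.0388, so the samples were taken to share only a number. Depth limits genes with few reads, where the pseudocount pulls changes towards 0.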
